A study of Mus musculus with 19 samples.

Results

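The unfolded protein response and the integrated stress response were described here through 10 genes, taken by name from the 56980 genes of the count table: *Atf4*, *Ddit3*, *Trib3*, *Asns*, *Chac1*, *Xbp1*, *Hspa5*, *Herpud1*, *Atf6* and *Ern1*. The choice was by gene name, with no threshold on a measured value, but with earlier results of these data known. All 10 passed the filter on low counts that left 18739 genes for testing. Their RNA was measured in CD11b+ cells enriched with magnetic beads (MACS) from the brain, without olfactory bulb and cerebellum, of male mice aged 3 to 4 months that were either KO for *Park7*, the gene of DJ-1, or their wildtype littermates. LPS, a bacterial cell wall component, had been given intraperitoneally at 4 μg per g body weight 6 h before the brains were collected, and control mice had received PBS. The 4 groups were wildtype PBS (n = 4), wildtype LPS (n = 5), KO PBS (n = 5) and KO LPS (n = 5), with 1 library per mouse. The KO line carries a constitutive gene trap in *Park7*, not limited to the sorted cells, and had been backcrossed to C57BL/6NCrl.

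The integrated stress response begins with kinases that phosphorylate the translation factor eIF2, which slows protein synthesis but raises the translation of a few mRNAs, among them that of the transcription factor ATF4. ATF4 then switches on genes of amino acid synthesis and transport, and, when stress lasts, the transcription factor CHOP, encoded by *Ddit3*. The unfolded protein response senses misfolded protein in the endoplasmic reticulum (ER) through PERK, which is an eIF2 kinase, through IRE1, encoded by *Ern1*, which splices the *Xbp1* mRNA, and through ATF6, which is cut free from the membrane and enters the nucleus. Counts per gene hold the amount of each mRNA, and show neither the splicing of *Xbp1*, nor the cutting of ATF6, nor the translation of *Atf4*.

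The libraries held between 11936364 and 22788884 counts. *Park7* had 9 to 90 counts in the KO libraries and 262 to 533 in the wildtype libraries. Levels are given as CPM, counts scaled to library size after TMM normalization. Microglia markers summed to 24831 to 38963 CPM at PBS and 10637 to 17121 CPM after LPS in wildtype mice, and to 26169 to 39842 CPM and 11009 to 17081 CPM in KO mice, with none of these genes at 0. Neutrophil and inflammatory monocyte markers summed to 64.8 to 112 CPM at PBS and 288 to 549 CPM after LPS in wildtype mice, to 34.6 to 205 CPM and 139 to 498 CPM in KO mice, and lymphocyte markers to at most 2.29 CPM in any library. With LPS, 9 of 10 microglia markers were called lower in each genotype, and of 10 neutrophil and monocyte markers 5 were called higher in wildtype mice, and 6 higher and 1 lower in KO mice (of all genes, 18.4% were called higher and 17.4% lower in wildtype, 20.1% and 19% in KO mice). Of 5 markers of border-associated macrophages 3 were called lower in each genotype (sums of 387 to 490.0 CPM at PBS and 212 to 426 CPM after LPS in wildtype, 369 to 479.8 CPM and 210.3 to 369 CPM in KO mice). Of 4 endothelial markers 2 were called lower in each genotype (270.3 to 826 CPM and 113 to 483 CPM in wildtype, 362 to 752 CPM and 61.3 to 523 CPM in KO mice), while 1 of 5 astrocyte and 1 of 4 neuron markers were called higher and none of 6 oligodendrocyte markers was called by edgeR or had an unadjusted p-value under 0.05. Oligodendrocyte markers were highest in 1 library of each group, at 6856 to 11377 CPM, against 558 to 4021 CPM in the other libraries. In bulk RNA, a change in the share of a cell type and a change in the RNA per cell cannot be told apart, and the part of these marker shifts in the results was not tested.

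The promoters of the 10 genes were searched for the short DNA elements through which these pathways are known to act. The search covered 250 bases upstream of the canonical start of transcription (GENCODE M39, genome build GRCm39) on both strands, in 21757 protein-coding genes. The ER stress element ERSE, bound by ATF6 together with NF-Y, was searched as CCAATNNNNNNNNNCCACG and occurred in 0.115% of all promoters. Its second form ERSE-II (ATTGGNCCACG) occurred in 0.0552%, the element bound by spliced XBP1 (TGACGTGG) in 0.561%, and the ATF4 element CARE (TGATGNAA) in 3.39%. Among the 10 genes, *Hspa5* held an ERSE, *Herpud1* an ERSE-II, and *Ddit3*, *Chac1* and *Herpud1* a CARE, while none held the XBP1 element. The matches are shown because the LPS responses of these genes are compared below, each within 30 bases of the strand of its gene, 5′ to 3′, with the fixed letters of the element in capitals. The CARE matches lie on the opposite strand and here read TTGCATCA.
Hspa5 ERSE, chr2:34662032-34662061: cttcaCCAATcggaggcctCCACGacgggg
Herpud1 ERSE-II, chr8:95112996-95113025: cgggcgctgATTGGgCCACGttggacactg
Herpud1 CARE, chr8:95112934-95112963: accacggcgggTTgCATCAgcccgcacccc
Ddit3 CARE, chr10:127126350-127126379: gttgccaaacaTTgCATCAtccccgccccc
Chac1 CARE, chr2:119181519-119181548: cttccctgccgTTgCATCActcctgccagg
All 5 stretches are printed from the plus strand of the build, which is the strand of these genes. The *Herpud1* matches were outside annotated exons, at 32 to 22 and 92 to 85 bases before the start. The *Hspa5* match (67 to 49 bases before the start) and the *Chac1* match (159 to 152 bases) fell in 5′ exons of longer transcripts of the same genes, and the *Ddit3* match (199 to 192 bases) in exons of the long noncoding RNAs *Gm4189* and *Gm66222*. The remaining genes held no such letters in this window. Only the canonical start of each gene and exact letters were searched, so elements at other starts or with other letters would be missed.

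The 10 genes covered a wide range of levels in unstimulated cells. Per kilobase of annotated exon, *Hspa5* was highest in wildtype PBS libraries (135 ± 7.20 CPM per kb, SD, n = 4), before *Atf4* (75.7 ± 5.21), *Herpud1* (56.1 ± 3.81), *Xbp1* (21.1 ± 2.17), *Atf6* (15.6 ± 1.81) and *Ern1* (7.28 ± 1.13). *Ddit3* followed at 1.72 ± 0.0716 CPM per kb and *Trib3* at 0.342 ± 0.162, and *Asns* (0.137 ± 0.0220) and *Chac1* (0.122 ± 0.111) were lowest. Neighbours in this order did not overlap between libraries, with the exception of *Asns* and *Chac1*. The length takes in all annotated exons of a gene, 11709 bases for *Asns* and 2594 for *Chac1*. In CPM without this division, the wildtype PBS mean of *Asns* (1.60) was above those of *Trib3* (1.16) and *Chac1* (0.317). After LPS, *Atf6* (46.7 ± 5.84 CPM per kb) stood before *Xbp1* (39.5 ± 3.40) in wildtype mice, with overlapping libraries, and *Asns*, *Chac1* and *Trib3* lay between 1.28 and 0.941 CPM per kb.

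To assess the response of the stress pathways to systemic inflammation, LPS was compared with PBS within each genotype. LPS raised 8 of the 10 genes in wildtype mice and the same 8 in KO mice (edgeR quasi-likelihood test, |log2FC| of 0.5 or more with an adjusted p-value below 0.05), and lowered none. Of all genes tested, 18.4% were higher and 17.4% lower by this rule in wildtype mice, and 20.1% and 19% in KO mice. The median log2FC of the 10 genes was 1.13 (wildtype) and 1.36 (KO), where that of all genes was -0.06 and -0.01. For 9 of the 10 genes, every LPS library lay above every PBS library in both genotypes, which held for 20.8% of all genes in wildtype and 16.2% in KO mice. *Ddit3* and *Ern1* were the 2 genes not called, *Ern1* because its fold change fell short of the threshold.

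**Figure D1:**
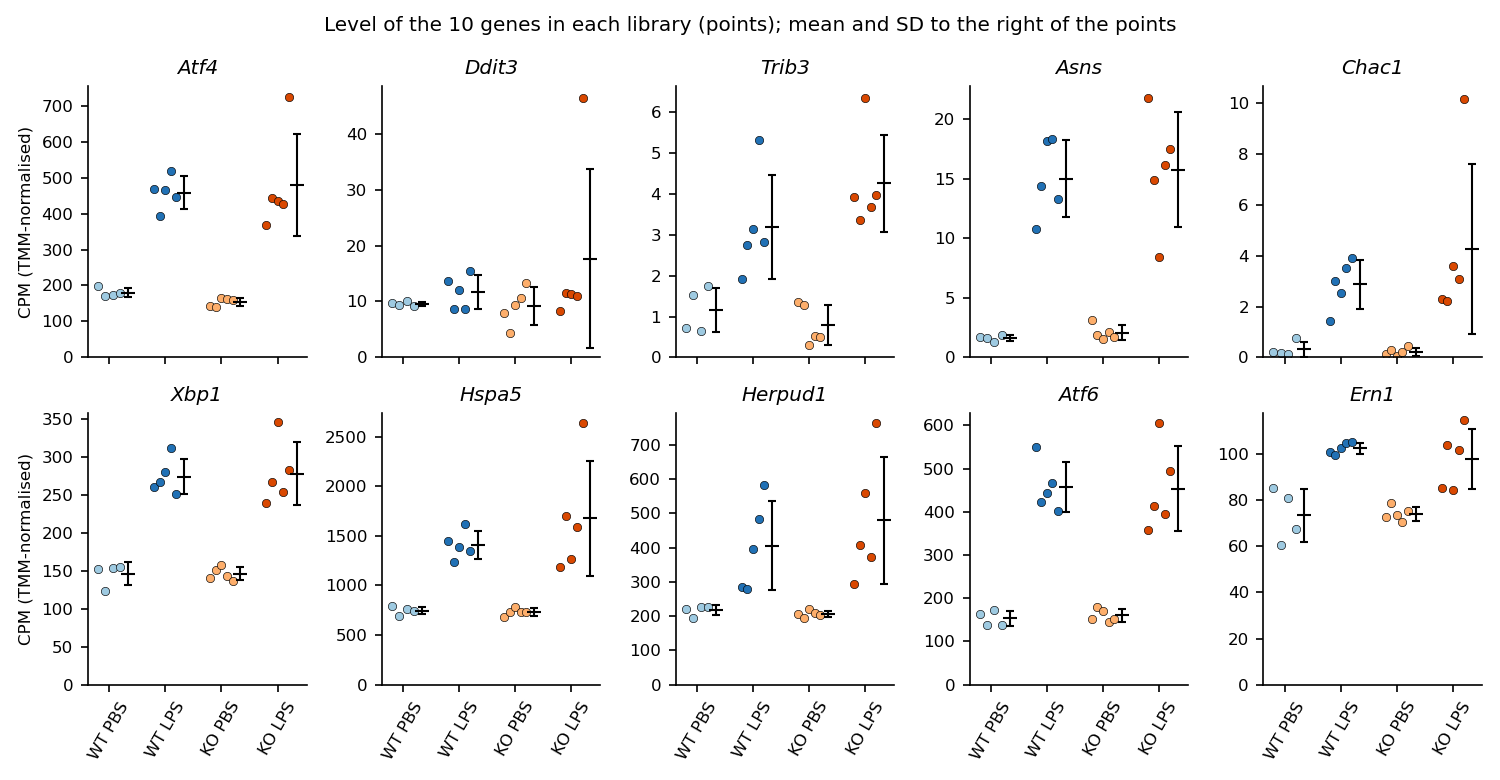
Level of each gene in CPM after TMM normalization (y axis, linear, starting at 0) in the 19 libraries (points, by genotype and injection), with the group mean and SD beside the points. In 9 genes all LPS libraries lie above the PBS libraries of their genotype, while the *Ddit3* libraries overlap and KO LPS replicate 5, at 46.3 CPM, stands apart.

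*Atf4*, the transcription factor at the centre of the integrated stress response, was abundant before LPS. It stood at 198, 170.1, 173 and 178 CPM in the 4 wildtype PBS libraries and at 469, 392, 467, 518 and 447 CPM in the 5 wildtype LPS libraries. In KO mice it stood at 143, 139, 166, 161 and 160.5 CPM with PBS and at 368, 442, 434, 426 and 726 CPM with LPS. The lowest LPS library was thus above the highest PBS library in each genotype, and the last KO LPS library exceeded the others. *Atf4* rose 2.55-fold in wildtype (log2FC 1.35, SE 0.155, adjusted p = 1.17e-06) and 3.11-fold in KO mice (log2FC 1.64, SE 0.145, adjusted p = 3.64e-08).

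*Asns*, asparagine synthetase and a classic ATF4 target, moved from near the lowest level to the largest log2FC of the 10 genes in wildtype mice. Its wildtype values were 1.67, 1.64, 1.25 and 1.86 CPM with PBS and 10.8, 14.4, 18.2, 18.3 and 13.3 CPM with LPS. In KO mice they were 3.13, 1.85, 1.52, 2.1 and 1.67 CPM and 21.8, 14.9, 8.43, 16.2 and 17.5 CPM. The PBS libraries of both genotypes reached at most 3.13 CPM and the LPS libraries at least 8.43 CPM. The increase was 9.31-fold in wildtype (log2FC 3.22, SE 0.287, adjusted p = 5.44e-08) and 7.68-fold in KO mice (log2FC 2.94, SE 0.256, adjusted p = 3.00e-08). Its wildtype rank before *Chac1* (log2FC 3.16, SE 0.609) was lost without PBS replicate 4, where *Chac1* was at 4.00 and *Asns* at 3.32.

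*Chac1*, an enzyme that breaks down glutathione and a target of ATF4, was close to the limit of detection without LPS. The 4 wildtype PBS libraries held 4, 3, 2 and 12 counts and the 5 KO PBS libraries 2, 6, 1, 4 and 8 counts. With LPS it reached 1.43, 3.03, 2.53, 3.51 and 3.92 CPM in wildtype and 2.31, 2.23, 3.59, 3.08 and 10.2 CPM in KO mice, from at most 0.745 CPM with PBS. No LPS library overlapped a PBS library. The fitted increase was 8.93-fold in wildtype (log2FC 3.16, SE 0.609, adjusted p = 0.000327) and 18.8-fold in KO mice (log2FC 4.23, SE 0.577, adjusted p = 6.72e-06). Its size leaned on single libraries, since the log2FC was 4.00 in wildtype mice without PBS replicate 4 and 3.63 in KO mice without LPS replicate 5.

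*Trib3*, a pseudokinase induced by ATF4 and CHOP that restrains both, was low as well. It had 0.73, 1.52, 0.657 and 1.74 CPM with PBS and 1.91, 2.76, 3.13, 5.33 and 2.81 CPM with LPS in wildtype mice. In KO mice the values were 1.35, 1.29, 0.305, 0.524 and 0.486 CPM and 3.94, 3.37, 6.34, 3.69 and 3.97 CPM. The wildtype groups were separated by a narrow gap, 1.74 against 1.91 CPM, and the KO groups by a wider one, 1.35 against 3.37 CPM. The increase was 2.74-fold in wildtype (log2FC 1.46, SE 0.429, adjusted p = 0.0100) and 5.36-fold in KO mice (log2FC 2.42, SE 0.409, adjusted p = 7.24e-05).

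*Ddit3* (CHOP), the pro-apoptotic factor downstream of ATF4, did not pass the test in either genotype. It stood at 9.64, 9.39, 10.1 and 9.19 CPM with PBS and at 13.7, 8.61, 12.04, 8.65 and 15.5 CPM with LPS in wildtype mice, a log2FC of 0.29 (SE 0.420, adjusted p = 0.631) with a 95% interval from -0.54 to 1.11. In KO mice it stood at 7.86, 4.34, 9.45, 10.7 and 13.4 CPM with PBS and at 8.27, 11.6, 11.3, 10.9 and 46.3 CPM with LPS. The libraries of the PBS and LPS groups overlapped in both genotypes, and KO LPS replicate 5, with 642 counts, lay far above the other 4 KO LPS libraries. The log2FC in KO mice was 0.95 (SE 0.395, adjusted p = 0.0574), and 0.20 without that library (adjusted p = 0.549). DESeq2 called it in KO mice (log2FC 0.95, adjusted p = 0.0421), and so did the edgeR fit without any 1 of 5 other KO libraries (lowest adjusted p = 0.0225). *Ddit3* overlaps *Mars1*, *Mbd6* and *Gm4189* on the other strand and *Gm20492* on its own, and a second *Ddit3* entry of the annotation had 0 counts in all libraries. *Mars1* had 1128 to 3338 counts per library, more than *Ddit3*, and rose with LPS in wildtype mice (log2FC 0.86). The kit kept the strand of the RNA, but the strand setting of the counting is not given in the sources used here.

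Among the genes of the ER, *Hspa5* encodes BiP, the main chaperone of the ER lumen and the best-known target of ATF6, and its promoter holds the ERSE shown above. It stood at 789, 694, 763 and 744 CPM with PBS and at 1446, 1241, 1385, 1621 and 1346 CPM with LPS in wildtype mice. In KO mice the values were 678, 734, 780.0, 735 and 734 CPM and 1188, 1702, 1271, 1587 and 2636 CPM. The groups did not overlap, and the spread of the KO LPS group (SD 577 CPM) was over that of the other groups (36.2 to 141 CPM). *Hspa5* rose 1.88-fold in wildtype (log2FC 0.91, SE 0.178, adjusted p = 0.000370) and 2.29-fold in KO mice (log2FC 1.20, SE 0.167, adjusted p = 8.86e-06).

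*Herpud1*, a membrane protein that helps to degrade misfolded ER proteins and whose promoter holds both an ERSE-II and a CARE, was tightly grouped with PBS and scattered with LPS. Its wildtype values were 221, 196, 225 and 228 CPM and 286, 280.5, 396, 484 and 581 CPM. Its KO values were 206, 195, 221, 208 and 204 CPM and 293, 408, 559, 373 and 763 CPM. All LPS libraries exceeded the PBS libraries of their genotype, and the LPS SD was 129.6 CPM in wildtype and 186 CPM in KO mice, against 14.8 and 9.47 CPM with PBS. The increase was 1.87-fold in wildtype (log2FC 0.90, SE 0.238, adjusted p = 0.00472) and 2.32-fold in KO mice (log2FC 1.21, SE 0.223, adjusted p = 0.000176).

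*Xbp1*, the mRNA that IRE1 splices, rose by nearly the same amount in both genotypes. It went from 152, 124, 153 and 155 CPM to 259.8, 267, 279.7, 312 and 252 CPM in wildtype mice. In KO mice it went from 141, 151, 158, 143 and 137 CPM to 239, 266, 346, 254 and 283 CPM. The groups did not overlap in either genotype, with wildtype PBS replicate 2 low and KO LPS replicate 3 high in their groups. *Xbp1* rose 1.88-fold (log2FC 0.91, SE 0.110, adjusted p = 2.02e-06) and 1.90-fold (log2FC 0.93, SE 0.102, adjusted p = 5.13e-07).

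The sensors themselves differed. *Atf6* stood at 165, 138, 172 and 139 CPM with PBS and 550.5, 423, 445, 466 and 403 CPM with LPS in wildtype mice, and at 151, 179.8, 171, 146 and 153 CPM and 359, 414, 604, 396 and 495 CPM in KO mice. It rose 2.99-fold (log2FC 1.58, SE 0.145, adjusted p = 8.08e-08) and 2.83-fold (log2FC 1.502, SE 0.134, adjusted p = 3.89e-08), a larger log2FC than that of *Hspa5*, *Herpud1* or *Xbp1* in each genotype. *Ern1* (IRE1) stood at 85.2, 60.5, 80.7 and 67.4 CPM with PBS and 101, 99.6, 103, 105 and 105 CPM with LPS in wildtype mice, and at 72.9, 78.6, 73.6, 70.4 and 75.3 CPM and 85.4, 104, 84.2, 102 and 115 CPM in KO mice. The LPS libraries lay above the PBS libraries in both, with adjusted p-values of 0.00111 and 0.00246, but the log2FC of 0.48 (SE 0.106) and 0.40 (SE 0.0991) missed the threshold of 0.5. *Eif2ak3*, which encodes PERK, the remaining ER sensor, was lower with LPS in both genotypes (log2FC -0.55, SE 0.145, adjusted p = 0.00451 in wildtype, log2FC -0.84 in KO mice). The wildtype call was lost when any 1 of 4 libraries was left out, PBS replicate 1 and LPS replicates 3, 4 and 5.

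**Figure D2:**
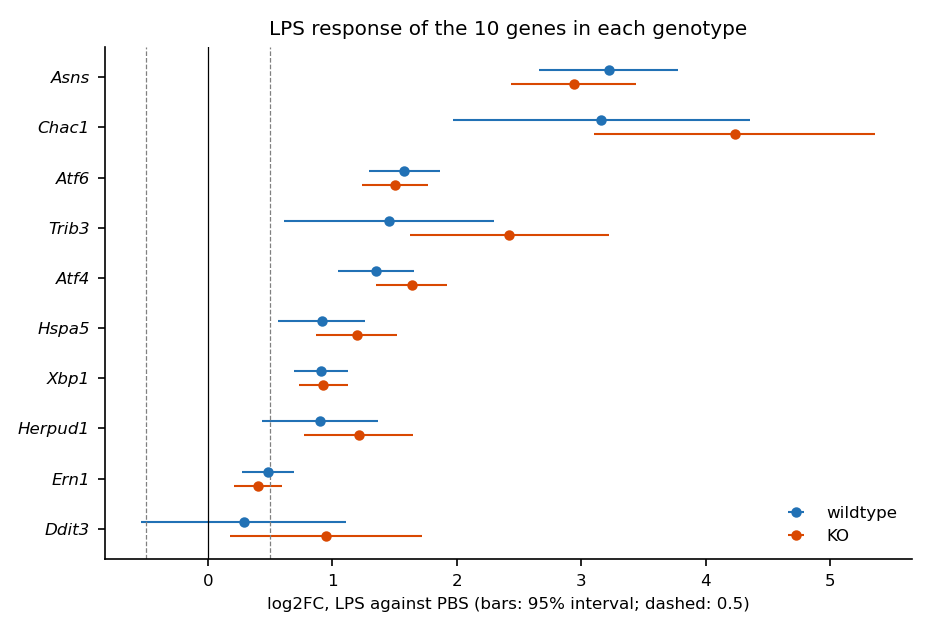
Log2FC of each gene for LPS against PBS (x axis) in wildtype (blue) and KO mice (orange), with bars for the 95% interval and dashed lines at the fold change threshold of 0.5. *Asns* and *Chac1* lie farthest to the right, at 2.94 to 4.23, and only *Ddit3* in wildtype mice has a bar that crosses 0.

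In KO mice, 1 LPS library stood apart in several of the 10 genes. KO LPS replicate 5 was the highest of its group for *Atf4*, *Ddit3*, *Chac1*, *Hspa5*, *Herpud1* and *Ern1*, and not for *Trib3*, *Asns*, *Xbp1* or *Atf6*. Without it, the log2FC of LPS in KO mice was 1.44 for *Atf4*, 0.97 for *Hspa5* and 0.98 for *Herpud1*, each of them still called (edgeR, largest adjusted p of these = 0.000446). The same library had 12943 CPM in the 9 genes that cell dissociation is known to induce, such as *Fos*, *Jun* and *Egr1*, against 3346 to 5964 CPM in the other KO LPS libraries. It also had the lowest astrocyte (171 CPM), endothelial (61.3 CPM) and neuron (17.0 CPM) marker sums of its group. With LPS, 4 of these 9 dissociation genes rose in wildtype and 5 in KO mice, and their sum was 3603 to 4194 CPM with PBS and 4750 to 7599 CPM with LPS in wildtype mice. In KO mice it was 2305 to 4149 CPM with PBS and overlapped the LPS libraries, and of all genes 18.4% rose in wildtype and 20.1% in KO mice. Their part in the values of *Ddit3* and the other genes was not tested. When the library with the most oligodendrocyte marker RNA was left out of each group, 8 of the 10 genes were again called with LPS in each genotype.

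**Figure D3:**
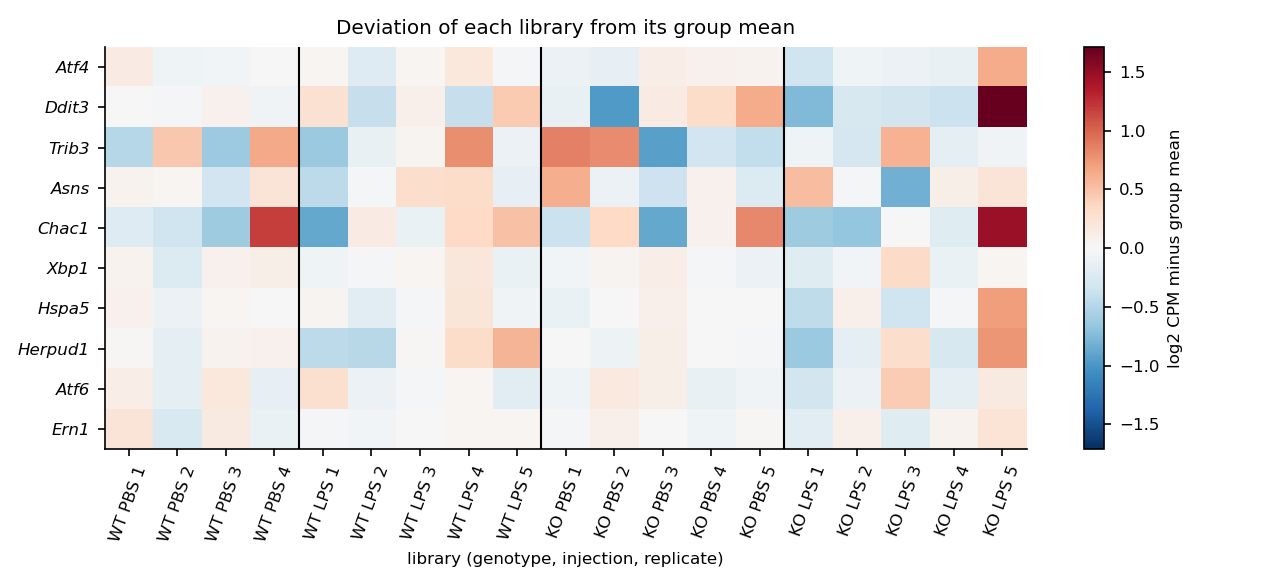
Log2 CPM of each gene (rows) in each library (columns) minus the mean of its group, on a colour scale centred on 0. KO LPS replicate 5 is high in *Ddit3* and *Chac1* and, less so, in *Atf4*, *Hspa5* and *Herpud1*, while *Trib3* and *Chac1*, the genes with few counts, vary between replicates in every group.

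To test whether DJ-1 deficiency altered these genes, KO mice were compared with wildtype mice after the same injection, and a gene was called at |log2FC| of 0.5 or more where its unadjusted p-value was below 0.05. None of the 10 genes was called after LPS or at PBS by edgeR, none had an unadjusted p-value under 0.05, and DESeq2 called none either. By that rule 1.31% of all genes were called after LPS and 0.8% at PBS. After adjustment, 2 genes of the whole table stayed below 0.05 after LPS and 1 at PBS.

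After LPS, the largest differences were those of *Ddit3* (log2FC 0.59, 95% interval from -0.18 to 1.36) and *Chac1* (log2FC 0.56, interval from -0.36 to 1.49), both with an adjusted p of 1.00 by edgeR. Both rested on KO LPS replicate 5, without which *Ddit3* was at -0.15 and *Chac1* at -0.04. *Hspa5* was at 0.25 (interval from -0.07 to 0.58) and *Herpud1* at 0.24 (interval from -0.19 to 0.67), and without that library both were at 0.03 or less. *Atf4* (interval from -0.21 to 0.34), *Xbp1* (-0.18 to 0.22), *Atf6* (-0.27 to 0.24) and *Ern1* (-0.26 to 0.13) had intervals that stayed within a log2FC of 0.5 in either direction. The intervals of *Trib3* (-0.32 to 1.16) and *Asns* (-0.39 to 0.53) were wider. Differences within these intervals were not detectable here.

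At PBS, *Atf4* was the one gene whose genotypes did not overlap. The 5 KO libraries lay between 139 and 166 CPM and the 4 wildtype libraries between 170.1 and 198 CPM, a log2FC of -0.22 (SE 0.150, 95% interval from -0.52 to 0.07, adjusted p = 1.00 by edgeR). Of all genes, 0.971% did not overlap between the genotypes at PBS, and 0.219% after LPS, where none of the 10 was among them. *Trib3* (log2FC -0.55, 95% interval from -1.40 to 0.31), *Chac1* (-0.51, from -1.83 to 0.81) and *Asns* (0.35, from -0.18 to 0.88) had larger differences at PBS but overlapping libraries. That of *Chac1* changed sign, to 0.32, without wildtype PBS replicate 4. The remaining 6 genes had a log2FC from -0.07 to 0.06.

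Whether LPS acted differently in the genotypes was tested with the interaction of genotype and LPS. It called 0% of all genes (180 genes had an unadjusted p-value under 0.05, and DESeq2 called 0) and none of the 10. The largest estimates were those of *Chac1* (log2FC 1.07, SE 0.825), *Trib3* (0.97, SE 0.577) and *Ddit3* (0.66, SE 0.572), all with an adjusted p of 1.00 by edgeR. *Herpud1* (0.31), *Atf4* (0.29), *Hspa5* (0.28) and *Xbp1* (0.02) were also above 0, and *Asns* (-0.28), *Atf6* (-0.08) and *Ern1* (-0.08) below it. The 4 comparisons share groups of libraries, so that a low PBS group or a high LPS group enters 2 of them. The *Ddit3* estimate became -0.08 without KO LPS replicate 5, and that of *Chac1* was 0.24 without wildtype PBS replicate 4.

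**Figure D4:**
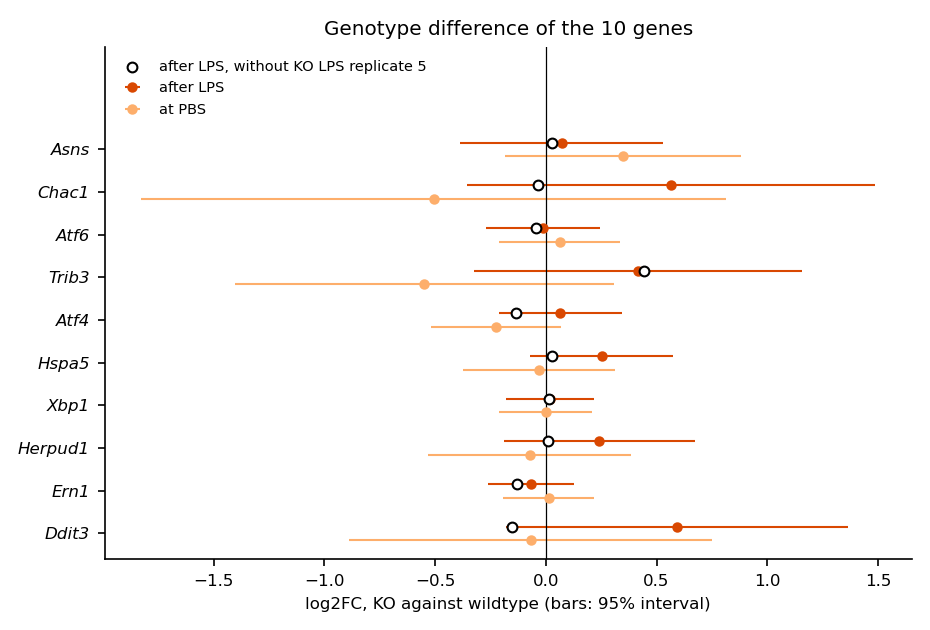
Log2FC of each gene for KO against wildtype mice after LPS (dark orange) and at PBS (light orange), with bars for the 95% interval, and after LPS without KO LPS replicate 5 (open circles). All bars cross 0, and the open circles of *Ddit3*, *Chac1*, *Hspa5* and *Herpud1* lie between -0.15 and 0.03.

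The wider pathway was described with 6 lists of genes, which were likewise chosen with earlier results of these data known. The shares below describe these lists and are no test of the pathway. Of 30 tested ATF4 and CHOP targets other than the 10 genes, 19 rose and 2 fell with LPS in wildtype mice, and 21 rose and 2 fell in KO mice, with median log2FC values of 0.99 and 1.22. The share that rose was 63.3% in wildtype and 70% in KO mice, beside 18.4% and 20.1% of all genes, and the share that fell 6.67% in each, beside 17.4% and 19%. *Slc7a11*, the cystine importer, rose most (log2FC 4.12, SE 0.537, adjusted p = 4.89e-06 in wildtype, log2FC 4.09 in KO mice). *Cebpb*, a partner of ATF4 in DNA binding that inflammation also induces, followed (3.14 in wildtype, 2.59 in KO mice), with *Mthfd2*, an enzyme of mitochondrial folate metabolism (2.50 and 2.94). *Pck2*, the mitochondrial form of PEP carboxykinase (-0.92 and -0.83), and *Cebpg*, another C/EBP factor (-0.90 and -1.001), fell.

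Of 14 genes of eIF2, its kinases and its other regulators, 10 rose and 1 fell in wildtype mice (71.4% and 7.14%, beside 18.4% and 17.4% of all genes). In KO mice 12 rose and 1 fell (85.7% and 7.14%, beside 20.1% and 19% of all genes), and the median log2FC was 0.83 and 0.87. *Eif2ak2*, which encodes the interferon-inducible kinase PKR, rose most in wildtype mice (log2FC 1.49, SE 0.172, adjusted p = 1.20e-06, 1.41 in KO mice), before *Eif2s1*, the subunit that is phosphorylated (1.41 and 1.60), and *Ppp1r15b*, a phosphatase subunit that reverses it (1.35 and 1.47). *Eif2ak3* (PERK), given above, was the one that fell.

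Of 22 chaperones and folding enzymes 5 rose and 2 fell in each genotype, and 15 did not pass, and the medians of the log2FC were 0.02 (wildtype) and -0.02 (KO). The share that rose, 22.7%, was near that of all genes (18.4% and 20.1%), and the share that fell was 9.09%, beside 17.4% and 19%. *Hyou1*, the nucleotide exchange factor of BiP, rose (log2FC 1.12 in wildtype, 1.16 in KO mice), as did the disulfide isomerases *Txndc5* (0.81 and 0.70) and *P4hb* (0.71 and 0.69). *Sil1*, another exchange factor of BiP (-0.70 and -0.99), and *Sdf2l1*, a co-chaperone (-0.69 and -0.85), fell. *Hsp90b1* (-0.19 and -0.08), *Pdia4* (-0.39 and -0.44) and *Dnajb9* (0.08 and 0.39), which ER stress is known to induce together with *Hspa5*, were not called. These genes were picked after their values were seen, from those of the list that did not pass. In KO mice only 3 chaperone genes rose without LPS replicate 5.

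Of 23 genes of ER-associated degradation and protein translocation, 9 rose and 3 fell in wildtype mice, 8 rose and 3 fell in KO mice, and the median log2FC was 0.24 and 0.15. The share that rose was 39.1% and 34.8%, beside 18.4% and 20.1% of all genes, and the share that fell was 13% in each, under the 17.4% and 19% of all genes. The largest wildtype increases among those called in both genotypes were those of the translocation genes *Sec61a1* (log2FC 0.96 in wildtype, 0.86 in KO mice), *Ssr2* (0.90 and 0.94) and *Sec61g* (0.80 and 0.65). The 3 genes that fell were *Edem2* (-1.29 and -1.26), *Erlec1* (-0.75 and -0.92) and *Edem1* (-0.66 and -0.75), which are known to act on misfolded glycoproteins. Of 9 tested partners of IRE1 and ATF6, 3 rose in each genotype (33.3%), among them *Creb3l1*, a relative of ATF6 (3.19 and 2.21), and *Rtcb*, the ligase that joins spliced *Xbp1* (0.79 in both). In KO mice *Mbtps1*, the protease that cuts ATF6, fell (-0.52), and it was at -0.43 in wildtype mice, where 0 of these genes were called lower by edgeR. That call was lost without KO LPS replicate 1 or 3 and without the oligodendrocyte-rich libraries. Of 10 mitochondrial genes, 5 rose and 1 fell in each genotype (50% and 10%), led by the chaperones *Hspd1* (1.45 and 1.62) and *Hspa9* (1.42 and 1.44), and *Oma1*, the protease that signals mitochondrial stress to eIF2, fell (-0.63 and -0.60). The fall of *Oma1* in KO mice was not called without KO LPS replicate 3 and without the oligodendrocyte-rich libraries.

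**Figure D5:**
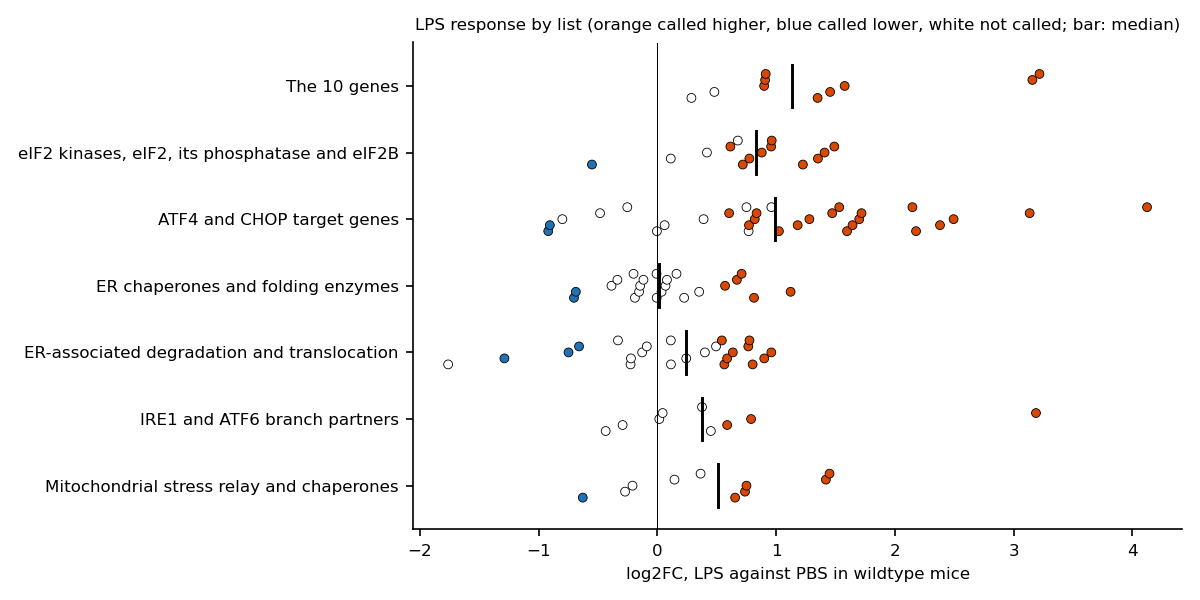
Log2FC of LPS against PBS in wildtype mice (x axis) for the 10 genes and the tested genes of 6 pathway lists (rows, 1 point per gene), orange where called higher, blue where called lower, white where not called, with a bar at the median. The medians are 1.13 for the 10 genes and 0.99 for the ATF4 and CHOP targets, against 0.02 for the ER chaperones.

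None of the 6 lists had a gene that edgeR called between KO and wildtype mice after LPS or at PBS. *Hspa9* was the one gene with an unadjusted p-value under 0.05 after LPS (log2FC 0.21, SE 0.0923, adjusted p = 1.00 by edgeR). DESeq2 called 1 gene after LPS, *Stc2* (log2FC -2.35, adjusted p = 1.00), which had 0 to 11 counts per library and did not pass the filter of edgeR. Both genes were singled out after their values were seen.

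The pattern of each gene over the 19 libraries was compared with that of all genes of at least 5 CPM, by the root mean square (RMS) difference of the centred log2 CPM, where 0 is an identical pattern. The nearest gene to *Ddit3* was *Ppp1r15a* (RMS 0.258), the stress-induced phosphatase subunit GADD34, which had 499 CPM in KO LPS replicate 5 and 96.7 to 177 CPM in the other KO LPS libraries. *Dnaja1*, a cytosolic co-chaperone, was also near (0.307). *Xbp1* was nearest to *Tdg* (0.102) and to *Sec23b* (0.109), a coat subunit of ER export vesicles, and *Asns* to *Uck2* (0.313) and *Ctps1* (0.339), enzymes of pyrimidine nucleotide supply. *Atf4* was nearest to *Afg2a* (0.136), *Hspa5* to *Eif5* (0.109), *Herpud1* to *Nfkb1* (0.159), *Atf6* to *B4galt1* (0.120) and *Ern1* to *Ccnt1* (0.0789). *Trib3* (0.487 to *Galnt6*) and *Chac1* (0.569 to *Itga5*) had no neighbour as close. They had 6 to 106 and 1 to 141 counts per library, and counting noise enters this difference. Its part was not tested. Among the 10 genes themselves, *Atf4* and *Atf6* were the closest pair (0.239) and *Chac1* and *Ern1* the farthest (1.55).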

How the data were processed

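RNA of CD11b+ brain cells was sequenced from 19 mice in 4 groups. Per the submitters' notes and methods, the authors made stranded total RNA libraries, trimmed reads with cutadapt and aligned them with STAR 2.7.9a to GRCm39. The deposited table holds unnormalized read counts for each Ensembl gene. Symbols came from GENCODE M39, which named 56236 of 56980 genes.

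Counts were analysed with edgeR 4.0.16 in R 4.3.3. Genes were kept with filterByExpr (minimum count 10, minimum total count 15), libraries scaled with TMM, and all 19 libraries fitted in 1 quasi-likelihood model of 4 groups, after tests on simulated data. P-values were adjusted with Benjamini-Hochberg over 18739 genes. Calls required |log2FC| of 0.5 or more and a p-value below 0.05, adjusted for LPS against PBS and unadjusted for KO against wildtype, and for the interaction an adjusted p-value below 0.05 alone. Intervals are 95%, from the SE. Log2 CPM used a prior count of 2.

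Named genes were the 10 genes, up to 3 risen and 3 fallen genes per list (largest log2FC in wildtype mice among those called alike in both genotypes, mean of at least 1 CPM), list genes called between genotypes, and the 3 nearest patterns per gene. Other genes named for contrast were chosen after their values were seen. The genes and lists were chosen with earlier results of these data known. Total counts of 11936364 to 22788884 limit low genes, and counting error is the least error of any value. No 2 libraries of a group were duplicates (chi-square per degree of freedom at least 6.50). Alternatives were another normalization, DESeq2 1.42.0, no filter, only the groups compared, a replicate block, an adjusted threshold for KO against wildtype, each library left out and, added after seeing the data, the library with the most oligodendrocyte marker RNA left out of each group.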

Additional observations from a re-analysis of the deposited data

Results flagged for a closer look

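Of 40 combinations of gene and group, 4 held a library far from the others by Dixon's test on log2 CPM, where chance alone gives about 1 in 20. *Ddit3* in KO LPS replicate 5 stood at 46.3 CPM against 8.27 to 11.6 CPM in the other libraries of its group, a gap of 0.804 of the whole range. *Atf4* in the same library stood at 726 CPM against 368 to 442 CPM, a gap of 0.729. *Trib3* in KO LPS replicate 3 stood at 6.34 CPM against 3.37 to 3.97 CPM, a gap of 0.743, from 106 counts. *Xbp1* in wildtype PBS replicate 2 stood at 124 CPM against 152 to 155 CPM, a gap of 0.907, and this library also had the most oligodendrocyte marker RNA of its group (9922 CPM, with 1076 to 1814 CPM in the others).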

How the results depend on the processing

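With LPS, at least 8 of the 10 genes were called in each genotype under every alternative, with *Ddit3* in KO mice as a 9th under DESeq2 (log2FC 0.95, adjusted p = 0.0421) and the replicate block (0.74, adjusted p = 0.0422). Leaving out single libraries gave 8 to 9 called genes in each genotype, with *Ern1* as the 9th in wildtype mice without PBS replicate 1 or 3 or LPS replicate 2. None of the 10 genes was called between genotypes under any alternative. Same-numbered libraries did not deviate together throughout (correlations from -0.03 to 0.73 between wildtype PBS and LPS and from -0.05 to 0.71 between KO PBS and LPS, with 6 of 8 and 4 of 10 libraries closest to their own number), so the number was not taken to pair mice, and the block changed no other call of the 10 genes.

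The count of all genes called between KO and wildtype mice after LPS, 245, was 854 without the low-count filter, 471 with DESeq2, 105 with the groups compared alone, 2 at an adjusted p-value under 0.05 and 228 to 434 with 1 library left out, the highest without KO LPS replicate 5. At PBS, 150 became 680, 332 (DESeq2), 234 (replicate block), 1 (adjusted) and 108 to 186.

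Some genotype differences and interactions changed sign, none of them called. These were near 0 except those of *Ddit3* after LPS and in the interaction and of *Chac1* after LPS and at PBS, which changed sign only with 1 library left out (KO LPS replicate 5, and wildtype PBS replicate 4 for *Chac1* at PBS). *Ern1* at PBS was -0.0178 without the filter, -0.0066 with DESeq2 size factors, -0.00589 with DESeq2, -0.00975 with the replicate block and -0.0916 without the oligodendrocyte-rich libraries. *Atf6* after LPS was 0.0028 with DESeq2 size factors, 0.0029 with DESeq2 and 0.0365 without the oligodendrocyte-rich libraries, where *Asns* after LPS was -0.0836 and the interaction 0.0285 for *Atf6* and 0.065 for *Ern1*. *Xbp1* at PBS was 0.00605 with the groups compared alone and 0.015 with the block, where its interaction was -0.000237. With 1 library left out, log2FC after LPS ranged from -0.0723 to 0.0738 for *Xbp1*, -0.0769 to 0.23 for *Asns*, -0.137 to 0.0681 for *Atf6*, -0.134 to 0.147 for *Atf4*, -0.0376 to 0.729 for *Chac1* and -0.153 to 0.771 for *Ddit3*. At PBS it ranged from -0.0681 to 0.0412 for *Xbp1*, -0.0633 to 0.0934 for *Ern1*, -0.879 to 0.323 for *Chac1* and -0.238 to 0.11 for *Ddit3*, and the interaction from -0.0711 to 0.088 for *Xbp1* and -0.0847 to 0.828 for *Ddit3*. The cause was not tested. *Chac1* and *Trib3* had 1 to 28 counts per PBS library, which limits their fold changes.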
